A study of Homo sapiens with 15 samples.

Results

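A set of 10 genes of the NF-kappaB pathway was described here across 15 xenograft tumors: the subunits NFKB1, NFKB2, RELA and RELB, the inhibitors NFKBIA and TNFAIP3, and the TNF-induced genes BIRC3, CXCL8, CXCL1 and ICAM1. A probe was taken as a member where the RefSeq accession given for it in the scanner output maps to 1 of these 10 genes, whatever its values were. This gave 11 member probes for 9 of the genes, of 34127 probes on the array that are no control. NFKB2 had no probe by this rule, RELA and CXCL1 had 2 each, and the scanner software rated all 11 as well above background on each of the 15 arrays.

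The tumors were grown in athymic nude mice from HCT116, a human colon cancer cell line with its own MOAP-1 and RASSF1A. Before injection the cells received by transient transfection either the empty vector, MOAP-1, 1 of 2 lysine mutants of MOAP-1 (K264R and K278R), or RASSF1A, with 3 tumors for each of the 5 constructs. MOAP-1 is a Bax-associating protein of the death receptor pathway, and RASSF1A is a tumor suppressor that binds it. The transfected cells were pools and not clones, and a transiently introduced construct can be lost as a tumor grows.

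NF-kappaB is a family of paired transcription factors that wait in the cytoplasm, held by IkappaB proteins, until a signal such as TNF at its receptor activates the IkappaB kinase. The freed dimers then switch on genes for cytokines, adhesion molecules and survival proteins, and among their targets are genes for their own inhibitors, which end the response. In colon epithelium the pathway is best known for inflammation and for protection of cells from TNF-induced death, and much of its control lies in protein degradation and nuclear entry, which an mRNA array does not measure.

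The array gives 1 intensity per spot, and levels are stated on the log2 scale relative to the 75th percentile of the same array, so that 1 unit is a doubling. These percentiles ranged from 496.3 to 1402 intensity units, between 85.1% and 93.1% of spots were well above background, and no spot was saturated. A level compares tumors within a probe, never 1 probe with another. A change is a difference of construct means in a limma fit to all 15 arrays, and a probe was called where the Benjamini-Hochberg adjusted p over 30585 kept probes was below 0.05 and the change at least 1.5-fold. The MOAP-1 arrays lay on slides 1 and 2, the K278R arrays on slide 2 and the K264R arrays on slide 3. The vector arrays lay on slide 4 with RASSF1A tumor 3. Slide and construct thus cannot be told apart for any comparison of MOAP-1 or its mutants with the vector or with RASSF1A. The same holds for K264R against MOAP-1 or K278R. RASSF1A tumors 1 and 2 lay on slide 5, scanned on a later day.

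The introduced genes were read first. The MOAP1 probe was higher than in the vector tumors by 0.86 in the MOAP-1 tumors (limma adjusted p = 0.000842), by 0.55, under 1.5-fold, in the K264R tumors (adjusted p = 0.00939) and by 0.74 in the K278R tumors (adjusted p = 0.00504). The RASSF1 probe stood at 1.56, 1.55 and 1.59 in the RASSF1A tumors and between 1.52 and 1.81 in the vector tumors, a difference of -0.12 with a 95% interval from -0.34 to 0.11 (limma adjusted p = 0.671). That probe therefore did not set the RASSF1A tumors apart, and whether either probe binds the introduced transcript is not given in the sources used here. All 8 epithelial markers on a list for HCT116 (EPCAM, keratins, cadherin and claudins) were well above background in all 15 tumors.

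RELA was the member gene that differed most between constructs, with both of its probes higher in the MOAP-1, K264R and K278R tumors than in the vector and RASSF1A tumors. RELA encodes p65, the subunit that carries the activation domain of the most common NF-kappaB dimer. On the probe A_23_P104689, printed 10 times on the array, the level was -0.56, -0.97 and -0.36 in vector tumors 1 to 3. The MOAP-1 tumors read 0.38, 0.46 and 0.22, with 0.26, 0.37 and 0.24 in the K264R tumors and 0.23, 0.27 and 0.27 in the K278R tumors. In the RASSF1A tumors it was -1.02, -1.07 and -0.70. Every tumor with MOAP-1 or a mutant lay above every vector tumor, and the RASSF1A values overlapped those of the vector. The 10 spots of this probe had a median SD of 0.05 within an array, smaller than the SD of 0.31 between the vector tumors.

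Against the vector, RELA on this probe rose by 0.99 (SE 0.14, 1.98-fold, limma adjusted p = 0.000450) in the MOAP-1 tumors. The rise was 0.92 in the K264R tumors (adjusted p = 0.000448) and 0.89 in the K278R tumors (adjusted p = 0.00274). In the RASSF1A tumors the difference was -0.30, with a 95% interval from -0.61 to 0.01, and did not pass (adjusted p = 0.426). The difference between the MOAP-1 and RASSF1A tumors, a comparison added after the values were seen, was 1.28 (limma adjusted p = 5.22e-05). That comparison called 21.2% of all kept probes.

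The other RELA probe, A_33_P3209433, with a single spot per array, gave the same order of the vector and RASSF1A tumors below the others. Its levels were -2.30, -2.62 and -2.26 in the vector tumors and -1.66, -1.48 and -1.78 in the MOAP-1 tumors. They were -1.91, -1.80 and -1.97 in the K264R tumors, -1.73, -1.62 and -1.77 in the K278R tumors, and -3.21, -2.97 and -2.53 in the RASSF1A tumors. The groups with MOAP-1 or a mutant again did not overlap the vector, and RASSF1A tumors 1 and 2 lay below all vector tumors.

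On that probe the change from the vector was 0.75 in the MOAP-1 tumors (limma adjusted p = 0.00334) and 0.69 in the K278R tumors (adjusted p = 0.0102), both called. In the K264R tumors it was 0.50 (adjusted p = 0.0238), under the 1.5-fold limit. In the RASSF1A tumors it was -0.51, with a 95% interval from -0.85 to -0.17 and a limma adjusted p of 0.341. With the normexp background model in place of the scanner software's correction, the MOAP-1 value of this probe turned to -0.068 and the K278R value to -0.12, while the median of all kept probes shifted by -0.53 and -0.46. Relative to those medians the changes were 0.46 and 0.35. Under that model A_23_P104689 stayed called in the MOAP-1 tumors, at 0.76 (limma adjusted p = 0.0176), and gave 0.67 in the K278R tumors without passing (adjusted p = 0.131).

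**Figure D1:**
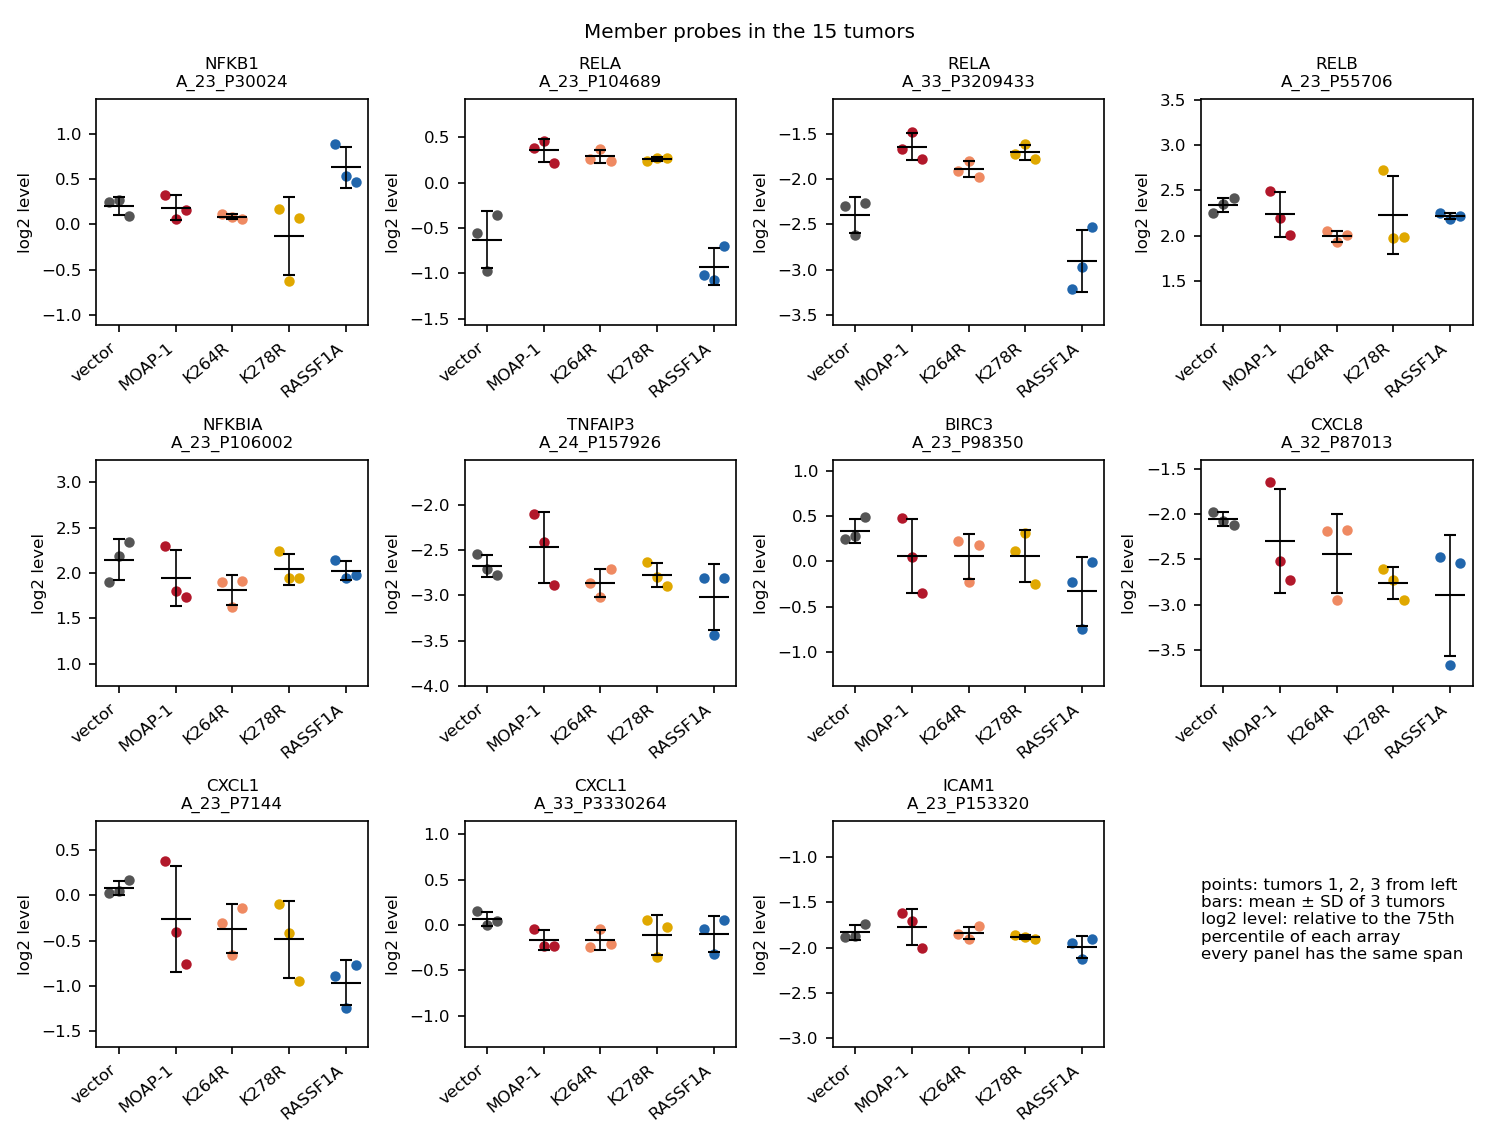
Level of each of the 11 member probes in the 15 tumors, in log2 units relative to the 75th percentile of the array. Points are tumors 1, 2 and 3 of each construct from left to right, bars are the mean and SD of 3 tumors, and every panel spans the same number of log2 units, so that the separation of the RELA probes and the flatness of ICAM1 can be compared by eye.

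The lysine mutants did not separate from MOAP-1 on RELA, though the MOAP-1 and K264R tumors share no slide. MOAP-1 minus K264R was 0.06 on A_23_P104689, with a 95% interval from -0.25 to 0.37, and 0.25 on A_33_P3209433, with an interval from -0.09 to 0.59. MOAP-1 minus K278R was 0.10 (interval -0.21 to 0.41) and 0.06 (interval -0.27 to 0.40). On slide 2, which held MOAP-1 tumor 2 and the 3 K278R tumors, the MOAP-1 tumor was higher by 0.20 and 0.22, above all 3 K278R tumors on both probes. On slide 4, RASSF1A tumor 3 differed from the mean of the vector tumors by -0.06 and -0.14 and lay inside their range, so the lower RELA of the RASSF1A tumors was not seen within a slide.

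The RELA pattern was common on these arrays. Of 23028 kept probes of genes outside the members and the pathway lists, 1844 (8.01%) had a Pearson correlation of at least 0.9 with A_23_P104689 over the 15 arrays. The 4 highest were SLC50A1 (0.99), BAZ2A (0.99), SSR2 (0.99) and SDF2 (0.99), given as a description, since all points share their array, slide and scaling. BAZ2A, for example, had mean levels of -2.48 in the vector tumors, -0.60, -0.66 and -0.96 in the MOAP-1, K264R and K278R tumors, and -2.97 in the RASSF1A tumors, the same order of groups as RELA.

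NFKB1 encodes p105, which is cut to the p50 subunit that pairs with p65. Its probe, A_23_P30024, read 0.25, 0.27 and 0.09 for the vector, 0.33, 0.06 and 0.16 for MOAP-1, and 0.11, 0.08 and 0.06 for K264R. In the K278R tumors it was at 0.16, -0.62 and 0.07, and in the RASSF1A tumors at 0.89, 0.53 and 0.46. The 3 RASSF1A tumors were the highest of all 15, and K278R tumor 2 was the lowest. RASSF1A minus vector was 0.43 (95% interval 0.04 to 0.81, limma adjusted p = 0.377), and 0.26 on the shared slide 4. Across the 5 constructs the moderated F test passed for NFKB1 (limma adjusted p = 0.0340). K278R minus RASSF1A was -0.76 (limma adjusted p = 0.00658, in a comparison that called 16% of all kept probes). That pair shares no slide and was singled out after the values were seen. Without K278R tumor 2 that difference was -0.51, under the fold limit. Without RASSF1A tumor 1 or 2 the F test no longer passed (limma adjusted p = 0.131 and 0.0660). NFKB1 and RELA thus had opposite signs in the RASSF1A tumors, neither of which passed the test against the vector.

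RELB, the subunit of the noncanonical pathway, lay between 2.25 and 2.41 in the vector tumors and between 2.18 and 2.25 in the RASSF1A tumors. MOAP-1 tumors gave 2.50, 2.19 and 2.01 and K278R tumors 2.72, 1.97 and 1.98, so tumor 1 was the highest in both. The K264R tumors, between 1.93 and 2.05, lay below all vector tumors, with a difference of -0.35 and a 95% interval from -0.72 to 0.03. No RELB comparison with the vector passed the test.

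The inhibitors showed no called change. NFKBIA encodes IkappaBalpha, which holds p65 and p50 in the cytoplasm and is resynthesized when they act. Its levels were 1.90, 2.19 and 2.34 in the vector tumors, 2.29, 1.80 and 1.73 in the MOAP-1 tumors, 1.90, 1.62 and 1.91 in the K264R tumors, 2.24, 1.94 and 1.95 in the K278R tumors, and 2.14, 1.95 and 1.98 in the RASSF1A tumors. All groups overlapped the vector. The K264R difference was the widest, at -0.33 with a 95% interval from -0.68 to 0.02.

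TNFAIP3 encodes A20, the ubiquitin-editing enzyme that shuts off signaling from the TNF receptor. It was at -2.54, -2.71 and -2.78 in the vector tumors, -2.11, -2.41 and -2.88 in the MOAP-1 tumors, -2.86, -3.02 and -2.72 in the K264R tumors, and -2.64, -2.80 and -2.90 in the K278R tumors. In the RASSF1A tumors it was at -2.81, -3.44 and -2.81, below all vector tumors. The differences from the vector were 0.21 for MOAP-1, with a 95% interval from -0.22 to 0.64, and -0.34 for RASSF1A, with an interval from -0.77 to 0.09.

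Before the TNF-induced genes are described, the promoter letters show which members have a match of an NF-kappaB motif next to their start in RefSeq (GRCh38.p14). The NF-kappaB consensus and GGAATTTCC, a motif added after the promoters were seen, were searched on both strands in windows from 250 bases before to 50 bases after each start. A match of GGAATTTCC can lie inside a match of the consensus. The consensus was found in 11.3% and GGAATTTCC in 0.461% of 35116 windows. The stretches that follow are printed 5′ to 3′ on the strand of the gene, with the matched letters in capitals.
CXCL8, chr4:73740463-73740501, plus strand: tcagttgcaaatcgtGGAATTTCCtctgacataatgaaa
CXCL1, chr4:73869299-73869339, plus strand: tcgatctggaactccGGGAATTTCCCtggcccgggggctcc
NFKB1, chr4:102501295-102501334, plus strand: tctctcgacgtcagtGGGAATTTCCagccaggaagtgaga
NFKBIA, chr14:35404806-35404845, minus strand: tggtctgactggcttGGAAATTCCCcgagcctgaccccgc
ICAM1, chr19:10270919-10270957, plus strand: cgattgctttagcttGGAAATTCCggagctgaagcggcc
TNFAIP3, chr6:137867177-137867228, plus strand: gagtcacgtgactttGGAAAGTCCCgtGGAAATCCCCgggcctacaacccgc
BIRC3, chr11:102317270-102317373, plus strand: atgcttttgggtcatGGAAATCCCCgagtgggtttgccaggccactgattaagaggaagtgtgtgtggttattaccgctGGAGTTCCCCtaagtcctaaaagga
RELA, chr11:65663858-65663927, minus strand: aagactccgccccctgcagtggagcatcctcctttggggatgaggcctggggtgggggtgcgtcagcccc

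CXCL8, CXCL1 and NFKB1 hold the same core letters, NFKBIA and ICAM1 hold them on the opposite strand, and TNFAIP3 and BIRC3 hold 2 consensus matches each. NFKB1 had its match in 1 of 2 windows. The stretch shown for RELA, for contrast, is the 70 bases before 1 of its 2 starts, and neither of its windows held a match. NFKB2, which had no probe, held a match in 2 of 3 windows and is not printed. RELB is not in the table. A match is a run of letters and not a measured binding site, and no match says only that these letters are absent from the window.

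The TNF-induced genes had their highest mean in the vector tumors on 4 of 5 probes (BIRC3, CXCL8 and both CXCL1 probes), and their lowest mean in the RASSF1A tumors on 4 of 5 (BIRC3, CXCL8, CXCL1 A_23_P7144 and ICAM1). None was called in any of the 4 comparisons with the vector. In bulk tumors fewer cells that express a gene and less RNA per cell cannot be told apart.

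CXCL8 encodes interleukin-8, a neutrophil-attracting chemokine. The vector tumors had levels of -1.98, -2.08 and -2.12, and the MOAP-1 tumors of -1.64, -2.52 and -2.73. K264R tumors had -2.19, -2.94 and -2.18, with -2.61, -2.73 and -2.95 in the K278R tumors and -2.48, -3.67 and -2.54 in the RASSF1A tumors. MOAP-1 tumor 1 was the highest of all 15 tumors and RASSF1A tumor 2 the lowest, and all K264R, K278R and RASSF1A tumors lay below the vector tumors. The change was -0.70 in the K278R tumors (limma adjusted p = 0.138) and -0.84 in the RASSF1A tumors (adjusted p = 0.363), and on slide 4 RASSF1A tumor 3 differed from the vector mean by -0.48.

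CXCL1, a related chemokine, gave probes that disagreed. On A_23_P7144 the vector tumors were at 0.03, 0.05 and 0.17, the MOAP-1 tumors at 0.38, -0.41 and -0.75, and the K264R tumors at -0.30, -0.66 and -0.14. The K278R tumors were at -0.10, -0.41 and -0.94, and the RASSF1A tumors at -0.88, -1.24 and -0.76. Every RASSF1A tumor lay below every vector tumor, by -1.04 on average (95% interval -1.62 to -0.47, limma adjusted p = 0.341), and by -0.84 on the shared slide 4. On A_33_P3330264 the RASSF1A tumors were at -0.04, -0.32 and 0.06 and overlapped the vector tumors at 0.16, 0.00 and 0.05, a change of -0.17 with an interval from -0.45 to 0.10. Whether the probes read the same transcripts is not given in the sources used here.

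BIRC3 encodes cIAP2, a ubiquitin ligase at the TNF receptor that protects cells from death. It was at 0.24, 0.28 and 0.49 in the vector tumors, 0.47, 0.05 and -0.35 in the MOAP-1 tumors, 0.22, -0.23 and 0.18 in the K264R tumors, and 0.12, 0.31 and -0.25 in the K278R tumors. In the RASSF1A tumors it was at -0.23, -0.75 and -0.01, below all vector tumors. The RASSF1A change was -0.67 (95% interval -1.16 to -0.17, limma adjusted p = 0.348), and on slide 4 it was -0.35. The changes for MOAP-1, K264R and K278R were all -0.28, with intervals from about -0.77 to 0.22.

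ICAM1, an adhesion molecule that leukocytes bind, varied least. All 15 tumors lay between -2.13 and -1.62, the highest being MOAP-1 tumor 1 and the lowest RASSF1A tumor 2. The change from the vector was 0.06 for MOAP-1, -0.01 for K264R, -0.05 for K278R and -0.17 for RASSF1A. The 95% interval of the MOAP-1 change ran from -0.17 to 0.29.

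**Figure D2:**
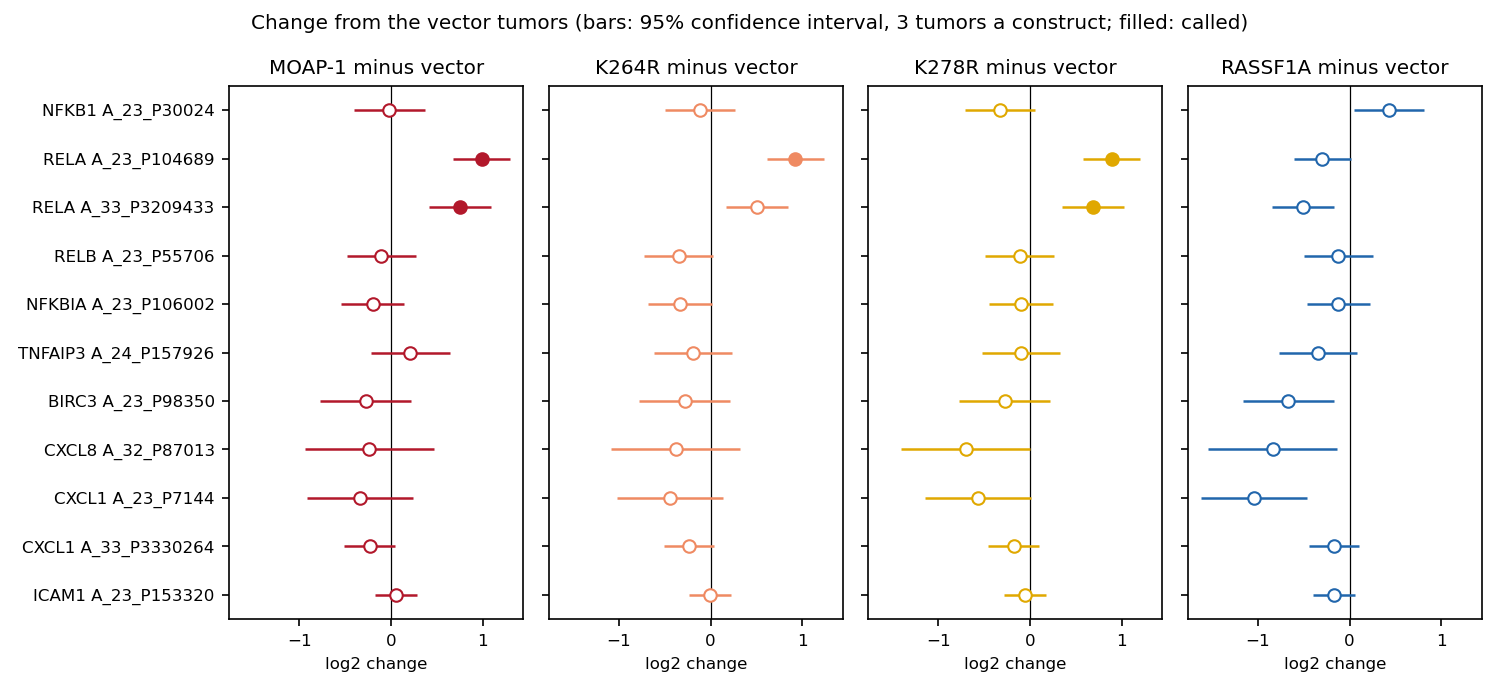
Log2 change of each member probe from the vector tumors in the 4 other constructs, with the 95% confidence interval of the limma fit (3 tumors a construct). Filled points were called, and these are RELA probes only, in the MOAP-1, K264R and K278R panels.

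Of the 11 member probes, 2 were called in MOAP-1 minus vector (both RELA, higher), where 16.6% of all kept probes were called. In K264R minus vector 1 was called, against 19.5% of all, and in K278R minus vector 2, against 10.9%. In RASSF1A minus vector limma called none, nor any of the kept probes (0%), while 5 member probes had an unadjusted p below 0.05. The share of all kept probes below that p was not computed, so those 5 cannot be read as a result about the members. MOAP-1 minus K264R and MOAP-1 minus K278R called no member, with 0.00327% and 0% of all probes called and no member with an unadjusted p below 0.05. MOAP-1 minus RASSF1A called 2, against 21.2%. The members' counts were thus near the background in each of these comparisons. The F test across constructs passed for 3 member probes, where 43.4% of all kept probes passed.

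The medians lay below those of all probes in the comparisons with the vector. The median change of the 11 member probes was -0.11 in MOAP-1, -0.23 in K264R, -0.11 in K278R and -0.30 in RASSF1A, beside 0.02, -0.05, 0.06 and 0.02 over all kept probes. In the RASSF1A tumors 10 of 11 member probes were below the vector mean, NFKB1 being the exception, and 6 of 11 did not overlap the vector, where 14.7% of all kept probes did not. The same counts without overlap were 3 in MOAP-1, 7 in K264R and 4 in K278R, beside 48.5%, 52.7% and 37.3% of all probes. These comparisons share the vector tumors and are not independent of each other.

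**Figure D3:**
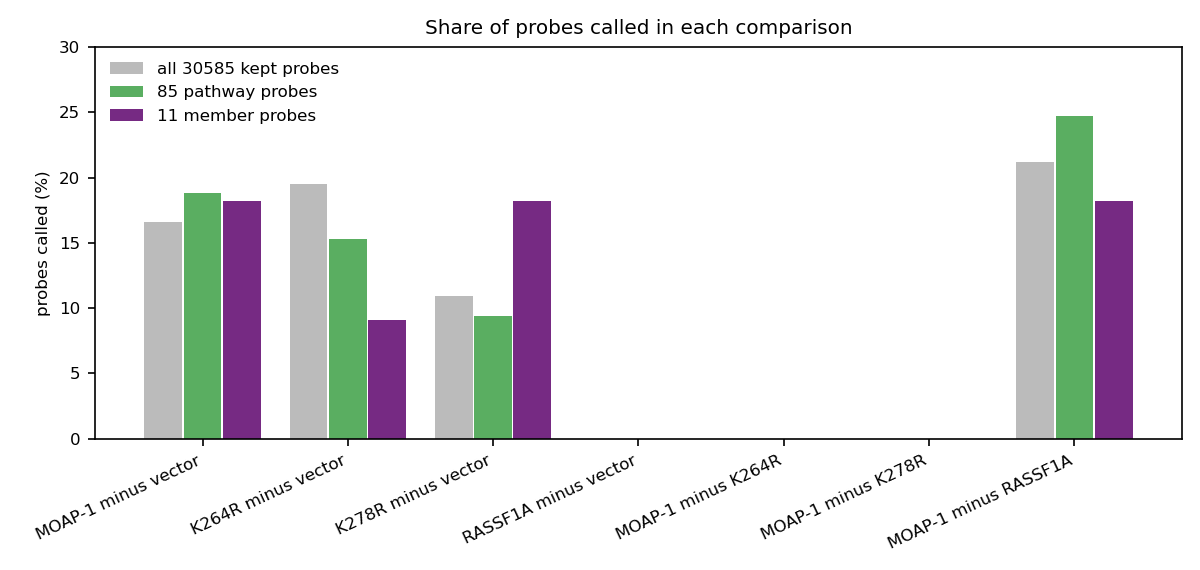
Percent of probes called in 7 comparisons for all kept probes, for 85 probes of the pathway lists and for the 11 member probes. The bars start at 0, RASSF1A minus vector and both comparisons of MOAP-1 with a mutant have bars at or near 0, and 1 member probe is worth 9.09%.

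In the 4 constructs other than the vector, the tumors kept much of their order from one induced gene to the next. On 7 probes (NFKBIA, TNFAIP3, BIRC3, CXCL8, both of CXCL1, and ICAM1) MOAP-1 tumor 1 was the highest MOAP-1 tumor 7 times and tumor 3 the lowest 7 times. RASSF1A tumor 2 was the lowest of its construct on all 7, K278R tumor 1 the highest on 6, and K264R tumor 2 the lowest on 6. Vector tumor 1 was the highest vector tumor on 3 probes and the lowest on 4. The 7 probes share their arrays, and 2 of them are for CXCL1. This order was not counted over all kept probes, so it cannot be called particular to the induced genes. On CXCL8 the MOAP-1 tumors differed from the vector mean by 0.42, -0.46 and -0.67, around a mean change of -0.24.

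**Figure D4:**
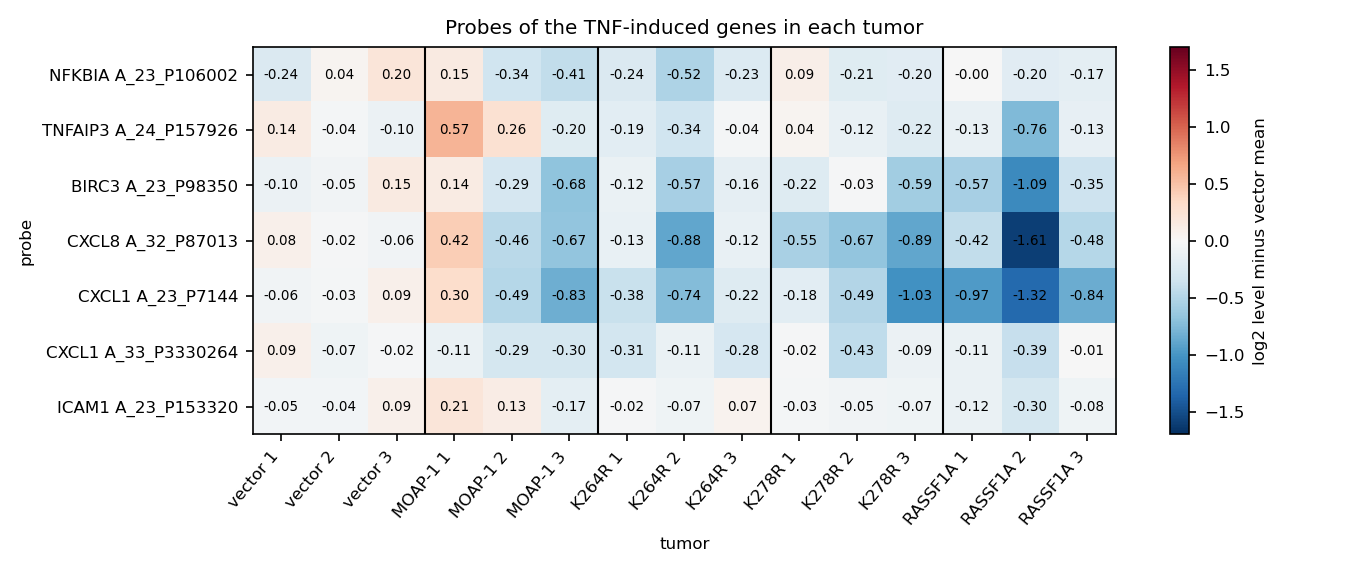
Log2 level minus the mean of the 3 vector tumors for 7 probes of the induced genes and inhibitors (rows) in each of the 15 tumors (columns, vertical lines between constructs). MOAP-1 tumor 1 is higher than the other MOAP-1 tumors in every row, and RASSF1A tumor 2 has the darkest blue cells, down to -1.61 on CXCL8.

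Probes listed as markers of host cell types moved with some of these tumors. The host is a mouse, and which cells gave the signal of these human probes was not tested. The array is human, and the 8 fibroblast markers (4 well above background in all tumors, LUM in none) had a summed linear level of 6.46 in MOAP-1 tumor 1 and of 47.2 and 35.0 in tumors 2 and 3. In the K264R tumors the sum was 4.96, 20.5 and 5.64, in the RASSF1A tumors 11.2, 12.9 and 8.71, and in the K278R tumors 14.6, 44.7 and 13.6. MOAP-1 tumor 1 thus had the highest induced genes and the lowest fibroblast sum of its construct, and K264R tumor 2 and RASSF1A tumor 2 the lowest induced genes and the highest sum. The K278R tumors went otherwise, since tumor 3 was the lowest on 5 of the 7 induced probes with the lowest fibroblast sum, and in MOAP-1 tumor 2 had the highest sum but tumor 3 the lowest induced genes. In the vector tumors the sum ran from 2.24 to 20.9, while CXCL8 stayed between -2.12 and -1.98. The leukocyte sum (8 of 10 markers with a probe, all well above background in all tumors) was 38.5 to 47.0 in the RASSF1A tumors and 31.9 to 37.9 in the vector tumors, against 29.2 to 34.7 in the MOAP-1, 27.3 to 29.8 in the K264R and 31.1 to 33.0 in the K278R tumors. The epithelial sum was 317 to 375 in the vector, 256 to 305 in the MOAP-1, 249 to 269 in the K264R, 217 to 325 in the K278R and 276 to 318 in the RASSF1A tumors. The endothelial sum (5 of 7 markers well above background in all tumors) lay between 2.61 and 4.16 in the 15 tumors. Each sum adds probes of unlike brightness, so its brightest probe weighs most. By median log2 level these were KRT19 (7.28), FCER1G (4.38), COL1A1 (2.49) and CDH5 (0.97). Against the vector, 1 of 8 leukocyte markers was called higher and 1 lower in the MOAP-1 and in the K278R tumors. In K264R 1 was called lower. Of the 8 fibroblast markers 1 was called higher in the MOAP-1 and 1 in the K278R tumors, with none called lower. No epithelial or endothelial marker was called against the vector. Of all kept probes 16.6%, 10.9% and 19.5% were called in MOAP-1, K278R and K264R minus vector. The part of these markers in the levels of the members was not tested.

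The rest of the pathway was read from 5 lists of 69 genes, of which 68 had a kept probe (85 probes). In MOAP-1 minus vector 15 genes were called, 12 with a higher and 4 with a lower probe, RBCK1 being in both. The called probes were 18.8% of the 85, near the background of 16.6%, and the median change was 0.10. In K264R minus vector 12 genes were called (15.3% of probes, beside 19.5% of all kept probes). In K278R minus vector it was 8 (9.41%, beside 10.9%). RASSF1A minus vector and both comparisons of MOAP-1 with a mutant had none in limma, and MOAP-1 minus RASSF1A had 17 (24.7%, beside 21.2% of all).

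By role, the group of REL and the other IkappaB proteins had 3 of 6 genes called higher in the MOAP-1 tumors. That was 50% of its 6 probes, beside 16.6% of all kept probes, and 6 probes are too few to read that share as a result about the group. NFKBIZ was higher by 0.95 (limma adjusted p = 0.00114), NFKBID by 0.86 (adjusted p = 0.00832) and REL by 0.76 (adjusted p = 0.0171). NFKBID and REL are named here after their values were seen. NFKBIZ and NFKBID encode nuclear IkappaB proteins, and REL encodes c-Rel, a subunit related to p65. Under the normexp background, where the median of all kept probes was -0.53, the values were -0.84, -0.85 and -0.34. Relative to that median they were -0.31, -0.32 and 0.19, so NFKBIZ and NFKBID turned while REL kept its sign.

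Among the kinases 3 of 10 genes were higher in the MOAP-1 tumors (23.1% of 13 probes, beside 16.6% of all kept probes). IKBKE, which encodes a kinase related to the IkappaB kinases, changed by 1.66 (adjusted p = 0.0175), with 1 of 3 vector tumors well above background. With the vector tumors raised to the lowest measured signal where they were dimmer, the difference was 1.32. Under normexp it was -1.24, or -0.71 relative to the median. The MOAP-1 tumors were at -6.41, -4.48 and -4.44. The highest vector tumor, tumor 1 at -6.53, was dimmer than the lowest measured signal of its array, at -6.06. That bound lies above MOAP-1 tumor 1, so no separation of MOAP-1 tumor 1 from the vector tumors was measured. MOAP-1 tumors 2 and 3, and K278R tumor 2 at -4.75, were the highest of all 15 and also had the 3 highest fibroblast sums. The part of these markers in the level of IKBKE was not tested. Of the 17 ligands, receptors and adaptors, CD40, a TNF receptor family member, was higher by 0.85 on A_33_P3245439 in the MOAP-1 tumors and by 0.98 in the K264R tumors (adjusted p = 0.0371 and 0.0163). Its other probe A_23_P57036 gave 0.33 in the MOAP-1 tumors (adjusted p = 0.0964). Under normexp A_33_P3245439 gave -0.89 and -0.26, or -0.36 and 0.043 relative to the medians of all kept probes. RBCK1, a partner of the linear ubiquitin ligase, was called in opposite directions by 2 probes in the MOAP-1 tumors, by 0.66 and -0.88, and by 0.89 on the first of them in the K278R tumors.

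Of 26 other TNF-induced genes with a kept probe, 3 were higher and 3 lower in the MOAP-1 tumors (18.2% of 33 probes, beside 16.6% of all kept probes). CFLAR, which encodes the caspase-8 inhibitor c-FLIP, was higher on A_24_P120115 by 1.31 in MOAP-1, 1.05 in K264R and 1.24 in K278R (adjusted p = 0.00907, 0.0233 and 0.0193). Its other probe A_23_P209394 gave 0.57 in MOAP-1 (adjusted p = 0.00290), under the fold limit. PLAU, the urokinase plasminogen activator, was higher on A_33_P3306146 by 1.18 in MOAP-1, 0.82 in K264R and 1.11 in K278R (limma adjusted p = 0.00129, 0.00856 and 0.00452). Its other probe A_23_P24104 gave 0.11, -0.16 and 0.01 (adjusted p = 0.561, 0.407 and 0.954). Under normexp CFLAR A_24_P120115 gave -1.14, -0.54 and -1.12 in the 3 comparisons, or -0.61, -0.23 and -0.66 relative to the medians. PLAU A_33_P3306146 gave -0.038, 0.087 and -0.053, but 0.49, 0.39 and 0.41 relative to the medians, and so kept its sign relative to them. In MOAP-1 minus RASSF1A the probes called against the vector gave 2.52 for CFLAR (2 of 3 RASSF1A tumors well above background), 1.93 for PLAU and 1.87 for CD40.

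The closest relatives of CXCL1 did not share a direction in MOAP-1 minus vector. CXCL2 on A_24_P257416 was lower, with changes of -0.87 in MOAP-1, -1.02 in K264R and -0.90 in K278R (limma adjusted p = 0.00176, 0.000471 and 0.00398), whereas A_23_P315364 gave 0.11, -0.40 and -0.46, none called. Under normexp A_24_P257416 gave -0.93, -0.68 and -0.93, or -0.41, -0.37 and -0.46 relative to the medians. None of these passed (limma adjusted p = 0.155, 0.354 and 0.279). In MOAP-1 minus RASSF1A both CXCL2 probes were called, in opposite directions, at -0.96 on A_24_P257416 and 0.86 on A_23_P315364. CXCL3 was higher by 0.64 in the MOAP-1 tumors (adjusted p = 0.0327), with -1.14 under normexp or -0.62 relative to the median, and by 1.73 in MOAP-1 minus RASSF1A (adjusted p = 6.57e-05). In RASSF1A minus vector CXCL3 changed by -1.09, with a 95% interval from -1.54 to -0.65 and a limma adjusted p of 0.341. CXCL2 A_23_P315364 was lower there too, at -0.76 (95% interval -1.31 to -0.20, limma adjusted p = 0.348). CXCL1 A_23_P7144, at -1.04, had the same direction, while CXCL2 A_24_P257416 gave 0.09. None of these probes was called in that comparison. CXCL10, an interferon-inducible chemokine, was not well above background in any vector tumor. A_24_P303091 was kept for the test only through the K264R tumors, the 1 construct with all 3 tumors well above background. Its call in K264R minus vector (limma adjusted p = 0.0132) used vector values below detection and is therefore no support for a rise. With the vector tumors raised to the lowest measured signal, the K264R tumors were at least 1.02-fold higher. Under normexp the change was -0.87, or -0.57 relative to the median. On A_33_P3343175, not kept for the test, the K264R mean was -8.01 and the vector mean -8.06. Only 1 of 3 K264R tumors and no vector tumor was well above background there, so this probe gave no measured difference.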

How the data were processed

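Each tumor was hybridized to 1 single-color Agilent human 4x44K array, and groups and tumor numbers come from the sample labels. For each array the deposited Feature Extraction output holds a processed signal, an intensity that the software had corrected for background and that was not scaled between arrays. The labels name version 9.1 of that software and the file headers 10.5.1.1. The authors also deposited a log2 table from GeneSpring GX, each array shifted to its 75th percentile. In it 8 columns follow the array of their own label and 7 another array of the same construct, so it served only as an alternative.

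Spots marked as outliers were left out, processed signals were log2-transformed, each array's 75th percentile was subtracted and spots of a probe were averaged (34127 probes). A probe was kept if some construct had it well above background in 3 of 3 tumors (30585 probes, 112 of them without a value on some array). Probes were named through RefSeq accessions (25422 probes, 74.5%). limma 3.58.1 in R 4.3.3 was fitted with construct as the only term, and tested on simulated data. Precision is limited by the number of tumors, since intensities have no counting depth, and p-values measure the spread between tumors, which were stated to be independent.

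The members, pathway lists and marker lists were chosen with earlier results of these data known. Named were every member probe, MOAP1 and RASSF1, up to 4 called pathway probes with the largest changes a comparison, CXCL2, CXCL3, and the 4 genes most correlated with each of the 2 members of widest range. Alternatives were quantile normalization, normexp background (offset 50), with and without spots whose local background exceeded 5 times the array median, other filters, the deposited log2 table, array weights, slide, scan day or replicate number as a block, only the arrays compared, the methods' t-test, and each tumor left out. Normexp used the median spot signal, the only uncorrected signal analysed here.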

Additional observations from a re-analysis of the deposited data

Results flagged for a closer look

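The level of RELA differed between the MOAP-1 and RASSF1A tumors, in a comparison that called 21.2% of all kept probes. Against the vector, RELA did not pass in the RASSF1A tumors on either probe (limma adjusted p = 0.426 and 0.341). The difference between the MOAP-1 and RASSF1A tumors was 1.28 log2 units on A_23_P104689 and 1.26 on A_33_P3209433 (limma adjusted p = 5.22e-05 and 7.91e-05, higher in 3 of 3 MOAP-1 tumors than in any RASSF1A tumor on both probes). The comparison was added after the values were seen, the MOAP-1 and RASSF1A tumors share no slide, and slide and construct cannot be told apart in it.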

How the results depend on the processing

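Of 1485 recomputed values of member probes, 1462 kept their side of the threshold, 13 passed it, 8 no longer passed and 2 changed direction while called. A further 80 of the 1462 changed sign where neither value was called. Normexp called fewer of all kept probes, 522 against 5079 in MOAP-1 minus vector and 1 against 3337 in K278R minus vector. It called 1 member probe in MOAP-1 minus vector (1 also without spots of extreme local background), 0 in K278R minus vector (1 without those spots), 1 in MOAP-1 minus RASSF1A and 1 in the F test. RELA A_33_P3209433 turned to -0.068 in MOAP-1 (adjusted p = 0.882) and -0.12 in K278R (adjusted p = 0.806) minus vector in limma, and the cause was not tested. In K278R minus vector 1 was called after quantile normalization and 0 with the methods' t-test after adjustment. In RASSF1A minus vector the methods' t-test without adjustment called 2. With a tumor left out, K278R minus vector called 1 to 2 (1 without vector tumor 2), RASSF1A minus vector 0 to 2 (2 without RASSF1A tumor 3), MOAP-1 minus RASSF1A 2 to 4 (4 without MOAP-1 tumor 3) and the F test 2 to 5 (5 without MOAP-1 tumor 3).

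Of 753 recomputed values of MOAP1 and the named pathway probes, which were added after seeing the data, 595 stayed called, 138 no longer passed and 20 changed direction, all under normexp, of which 7 kept their direction relative to the median of all kept probes. In MOAP-1 minus vector the values that changed direction were -0.84 for NFKBIZ, -0.85 for NFKBID, -0.34 for REL, -1.24 for IKBKE, -1.14 for CFLAR, -1.14 for CXCL3 (-0.081 without extreme spots), -0.55 for RBCK1, -0.89 for CD40 and -0.038 for PLAU. In K264R minus vector they were -0.54 for CFLAR (-0.32 without extreme spots), -0.87 for CXCL10 (-0.69 without them, called lower), -0.10 for RBCK1 and -0.26 for CD40. In K278R minus vector they were -0.80 for NFKBID, -1.12 for CFLAR, -0.37 for RBCK1 and -0.053 for PLAU. Pathway genes called in MOAP-1 minus vector fell from 15 to 1 under normexp, where the calls among all kept probes fell from 5079 to 522. With array weights MOAP-1 minus K264R called 1806 of all kept probes against 1 without them, with 0 member probes and 4 pathway genes among them.

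With the replicate number as a block 76 of 77 member values kept their side of the threshold, and CXCL1 A_23_P7144 in MOAP-1 minus RASSF1A passed at 0.70 (adjusted p = 0.0428, limma). The block called 2, 1, 2 and 0 member probes in the 4 comparisons with the vector in the order of the text, and 4 in the F test. Of 30 same-numbered pairs of tumors from different constructs 15 had deviations correlated over 0.1 (median 0.11, lowest -0.25), against a median of -0.038 for differently numbered pairs. Of the 15 tumors 9 correlated best with their own number. Not every pair was over 0.1 and the labels name no shared litter or day, so the number was not used as a pairing.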

Other observations

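CXCL8 was followed most closely over the 15 arrays by VTCN1, an immune checkpoint ligand, with a Pearson correlation of 0.94, then by INGX (0.86), ATF3 (0.86) and KLF6 (0.85). ATF3 and KLF6 encode stress-induced transcription factors. VTCN1 had mean levels of -0.87 in the vector tumors, -1.15, -1.12 and -1.33 in the MOAP-1, K264R and K278R tumors, and -1.48 in the RASSF1A tumors, the order of vector first and RASSF1A last that CXCL8 has. Of 23028 kept probes only 1, that of VTCN1, reached 0.9 with CXCL8, where 1844 did with RELA A_23_P104689. These are descriptions over arrays that share slides and scaling.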
